A study of Mus musculus with 6 samples.

Results

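The erythroid and megakaryocyte genes described here are Klf1, Epor and Rhag, which belong to red cell development, and Itga2b, Gp9 and Pf4, which belong to megakaryocytes and platelets. They were chosen by name, as every probe set annotated to 1 of these 6 genes. Each gene had 1 probe set, so 6 of 34945 probe sets with a single gene symbol, or 6 of 18193 genes, were taken. RNA came from Ba/F3, a mouse line kept as a pro-B cell model that depends on interleukin 3, on Affymetrix Mouse Genome 430 2.0 arrays. The control group held 3 samples labelled as control and without doxycycline, which the submitters describe as uninduced or mock cells. The other group held 3 samples given doxycycline to switch on NCOR1-LYN, a fusion of a nuclear corepressor with a SRC family kinase, brought in by a retroviral Tet-on system. The sources used here do not say whether the uninduced cells carried the construct, whether the line was a clone or a pool, how long doxycycline was given, or whether interleukin 3 was present. All NCOR1-LYN samples and no control sample had doxycycline, so the drug and the fusion cannot be told apart, and the level of the fusion was not checked here.

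Erythroid and megakaryocyte cells arise from a shared progenitor in the bone marrow. GATA factors with TAL1 and its partners act in both lineages, KLF1 favours the erythroid side, and the erythropoietin receptor keeps erythroid progenitors alive through JAK2 and STAT5. The mature products differ: red cells carry haemoglobin and the Rh membrane complex, while megakaryocytes load granules with platelet factors and display the glycoprotein Ib-IX-V complex and the integrin alphaIIb-beta3. Ba/F3 cells also respond to JAK2 and STAT5, through the interleukin 3 receptor.

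Promoter sequence is shown for the 4 members on which the results turn, so that the presence or absence of letters read by lineage factors can be seen. Sequences are from RefSeq, build GRCm38.p6, which had an entry for all 6 members, and each line gives the 130 bases that end just before the annotated start of transcription, 5′ to 3′ on the strand of the gene. Capitals mark matches, on either strand, to 3 kinds of motif. The GATA motif was searched as AGATAA, with AGATAG as another form, then as TGATAA, with TGATAG as the last form. The CACCC box was searched as CACCC, and the ETS motif as CAGGAA, with CCGGAA as another form. No marked match overlapped another.
Klf1 (chr8:84901852-84901981, plus strand): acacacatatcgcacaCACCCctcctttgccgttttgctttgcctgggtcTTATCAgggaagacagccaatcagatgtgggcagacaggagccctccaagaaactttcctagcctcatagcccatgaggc
Rhag (chr17:40811019-40811148, plus strand): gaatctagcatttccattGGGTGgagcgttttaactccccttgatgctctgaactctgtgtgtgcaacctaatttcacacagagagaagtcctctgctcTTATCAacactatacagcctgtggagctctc
Itga2b (chr11:102469884-102470013, minus strand): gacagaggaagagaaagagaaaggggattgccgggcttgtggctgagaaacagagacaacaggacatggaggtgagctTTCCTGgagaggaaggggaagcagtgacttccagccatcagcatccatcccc
Gp9 (chr6:87777940-87778069, plus strand): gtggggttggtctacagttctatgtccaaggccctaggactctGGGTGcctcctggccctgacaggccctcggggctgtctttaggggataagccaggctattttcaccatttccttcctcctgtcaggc
Within 250 bases before the start, a GATA match was found in 3 of 6 members (Klf1, Epor and Rhag), against 26.5% of all 32851 promoters. A CACCC match was found in 4 of 6 (the same 3 genes and Gp9), against 52% of promoters, and an ETS match in Itga2b alone of the 6, against 35.1%. The GATA match lay 75 to 80 bases before the start in Klf1, 26 to 31 in Rhag and 49 to 54 in Epor. The Pf4 window held none of these letters. These are matches of letters and not measured binding.

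Over the 5 members that could be tested, every log2 difference of NCOR1-LYN from control was below 0, but none passed the test, and both replicate 1 arrays stood above the other 4 arrays for Klf1, Rhag and Itga2b. The signs for Klf1, Epor and Rhag turned when single arrays were left out, while those for Gp9 and Itga2b did not. In a bulk sample fewer cells that express a gene and less RNA per cell cannot be told apart. Signals below are MAS5 values in the order of replicates 1, 2 and 3. MAS5 is a linear brightness per probe set that the authors scaled to the same trimmed mean on each array. Genes under the 40th percentile of mean log2(signal + 64) were not tested. Differences are on the scale of log2(signal + 64), which understates changes of dim genes, and adjusted p-values are from limma over all 10916 genes tested. In the fit of NCOR1-LYN against control 0 of 5 members passed an adjusted p of 0.05, where 0.0824% of all genes did, and 1 (Gp9) had an unadjusted p under 0.05, where 4.75% did. With the replicate number as a block 0 of 5 passed, where 0.824% of all genes did, and 2 (Gp9 and Itga2b) had an unadjusted p under 0.05, where 11.3% did. All 5 had a difference below 0, as had 52.8% of all genes, and their median was −0.19 against −0.013 over all genes.

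**Figure D1:**
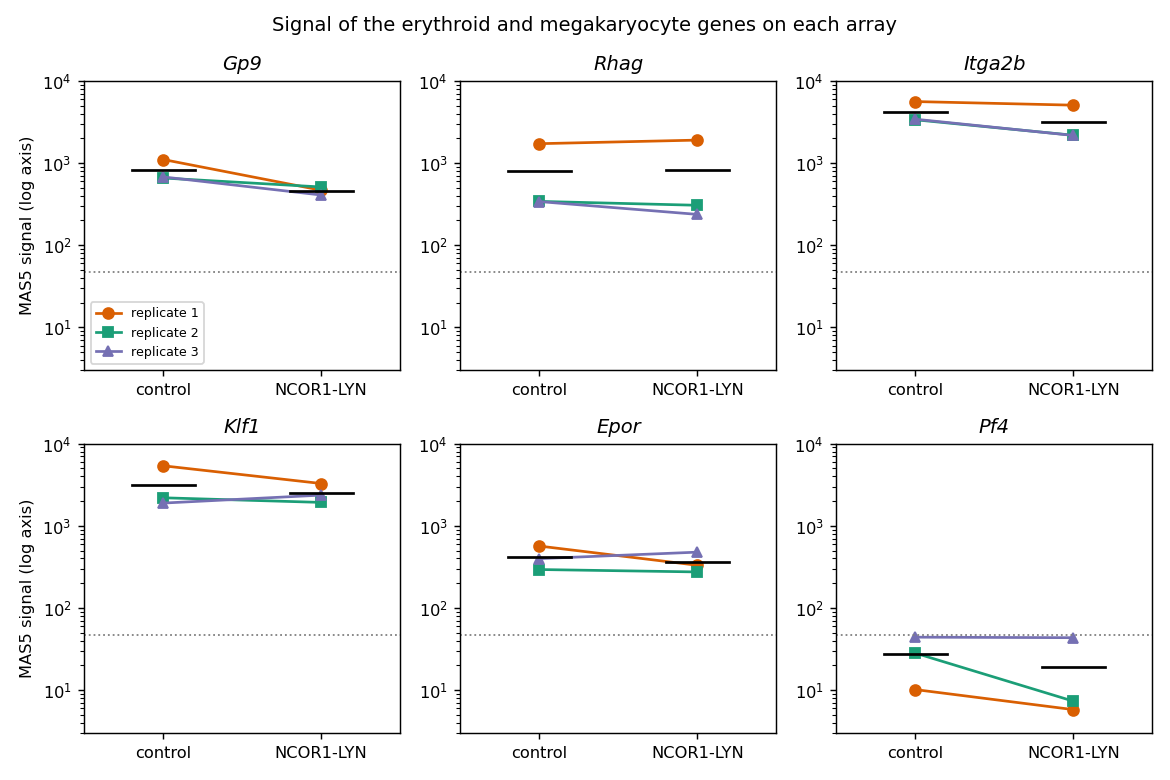
MAS5 signal (log axis) of each gene on each array, with same-numbered arrays joined, black bars for group means and a dotted line at 47.0, the lowest mean signal of any gene tested. The replicate 1 arrays of Rhag, Itga2b and Klf1 lie above all other arrays, the groups of Gp9 do not overlap, and the Pf4 points lie under the dotted line.

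Klf1, the zinc finger factor that switches on globin and red cell membrane genes, had signals of 5388, 2196 and 1893 in control and 3276, 1928 and 2365 with NCOR1-LYN. Control 1 was the highest array and control 3 the lowest, so the NCOR1-LYN values lay within the control range. The group means were 3159 ± 1936 and 2523 ± 688 (SD, n = 3), and the log2 difference was −0.19 ± 0.39 (SE, adjusted p = 0.999 in limma; 95% interval −1.10 to 0.72). The pairs ran in different directions, with differences of −0.71, −0.18 and 0.31. Without control 1 the difference was 0.27, and without both replicate 1 arrays it was 0.065.

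Epor, the receptor through which erythropoietin signals, had signals of 567, 293 and 399 in control and 331, 274 and 478 with NCOR1-LYN. The groups overlapped, the lowest array of each being replicate 2. Its log2 difference was −0.18 ± 0.26 (SE, adjusted p = 0.999 in limma; 95% interval −0.79 to 0.43), from pairs of −0.68, −0.080 and 0.23. As for Klf1, the sign rested on control 1: without that array the difference was 0.035.

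Rhag, the ammonia channel of the Rh complex in the red cell membrane, had signals of 1725, 342 and 340 in control and 1907, 307 and 237 with NCOR1-LYN. Replicate 1 was far above the other replicates in both groups, 5.06 times their mean in control and 7.01 times with NCOR1-LYN, while the group means were 802 ± 799 and 817 ± 945 (SD, n = 3). Its log2 difference was −0.14 ± 0.83 (SE, adjusted p = 0.999 in limma), with a 95% interval of −2.08 to 1.81 that spans large changes in both directions. Pair by pair the differences were 0.14, −0.13 and −0.42. The direction turned to 0.58 without control 1, 0.21 without NCOR1-LYN 2 and 0.36 without NCOR1-LYN 3.

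Itga2b encodes the alphaIIb chain of the platelet fibrinogen receptor, known as CD41, which also marks megakaryocyte progenitors. Its signals were 5622, 3371 and 3427 in control and 5082, 2186 and 2173 with NCOR1-LYN. The NCOR1-LYN array was the lower in every pair, but NCOR1-LYN 1 lay above control 2 and control 3, so the groups overlapped. The log2 difference was −0.47 ± 0.36 (SE, adjusted p = 0.999 in limma; 95% interval −1.30 to 0.37), from pairs of −0.14, −0.61 and −0.64. Without both replicate 1 arrays the difference was −0.63 ± 0.06 (SE, adjusted p = 0.000282 in limma). That fit holds only 2 arrays per group, and 6.82% of all genes passed in it.

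Gp9, the glycoprotein IX subunit of the von Willebrand factor receptor on platelets, had signals of 1107, 658 and 679 in control and 467, 512 and 409 with NCOR1-LYN. Every control array was above every NCOR1-LYN array, which held for 1 of 5 members and, with NCOR1-LYN lower, for 6.06% of all genes. The mean with NCOR1-LYN was 56.8% of control, at 463 ± 51.9 against 815 ± 253 (SD, n = 3). The log2 difference was −0.71 ± 0.21 (SE) and did not pass (adjusted p = 0.708 in limma; unadjusted p = 0.0121), and it was −1.14, −0.33 and −0.65 in the pairs. Without both replicate 1 arrays it was −0.49 ± 0.12 (adjusted p = 0.0357). In that fit 2 of 5 members passed (Gp9 and Itga2b, both lower), where 6.82% of all genes passed and 3.64% passed as lower. It holds 2 arrays per group, which correlated across genes at 0.994 in control and 0.993 with NCOR1-LYN. Gp9 and Itga2b were also the 2 of the 5 tested members lower in all 3 pairs, as were 18.9% of all genes. Control 1 was the highest array for 4 of 5 members, Rhag being the exception, and for 30.8% of all genes.

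Pf4, the platelet chemokine stored in alpha granules, was not tested among genes because it lay below the filter, with a mean signal of 23.1. It read 10.1, 28.1 and 44.0 in control and 5.76, 7.30 and 43.4 with NCOR1-LYN. Its pair differences were −0.087, −0.37 and −0.0085, so Pf4 too was lower in all 3 pairs, at signals below the filter. In a fit of all 34945 probe sets without a filter its log2 difference was −0.15 ± 0.21 (SE, adjusted p = 0.9998 in limma). In that fit 0 of 6 members passed, 1 of 34945 probe sets did (0.00286%), and 4.8% had an unadjusted p under 0.05.

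**Figure D2:**
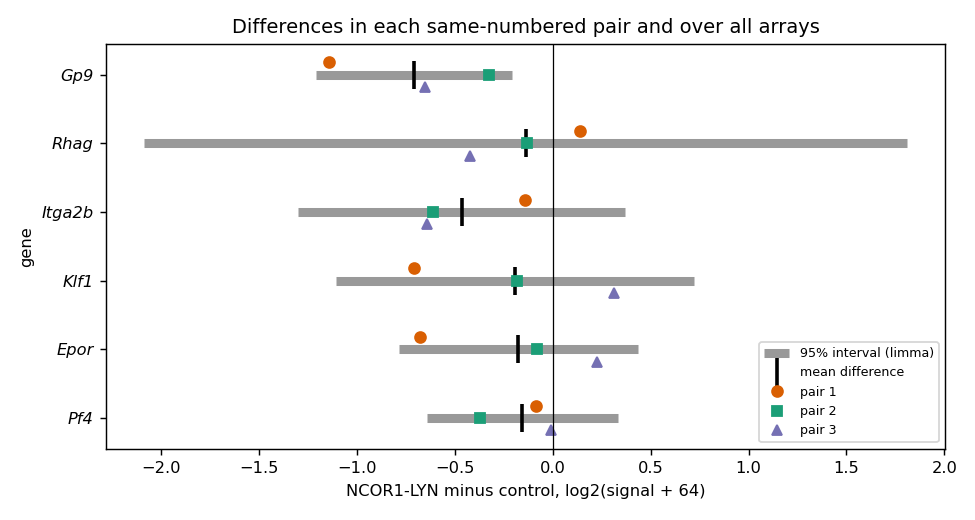
Difference of NCOR1-LYN from control on the log2(signal + 64) scale, with a symbol for each same-numbered pair, a black tick for the difference of the group means and a grey bar for its 95% interval in limma (all 6 arrays). The Gp9 and Itga2b symbols lie below 0 in all 3 pairs. Those of Pf4, a gene below the filter, do so too, with pair 3 close to 0. The pairs of Klf1, Epor and Rhag fall on both sides of 0, and the Rhag bar is the widest, from −2.08 to 1.81.

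The replicate number passed a test for 3 of the 5 members. In a limma F-test of the replicate number with the group held fixed, Rhag (adjusted p = 0.0032), Itga2b (adjusted p = 0.016) and Klf1 (adjusted p = 0.0399) passed, and Gp9 (adjusted p = 0.377) and Epor (adjusted p = 0.226) did not. All 3 were higher in replicate 1, where 7.24% of all genes passed with replicate 1 higher. On the log2 scale replicate 1 exceeded replicates 2 and 3 by 2.35 for Rhag, 0.96 for Itga2b and 0.99 for Klf1. Both replicate 1 arrays were above the other 4 arrays for these 3 genes, as for 26.8% of all genes. Klf1 missed the threshold with no filter on low values (adjusted p = 0.0944), with array medians set equal (0.0572), with the mean of probe sets (0.058) and without an intensity trend (0.0741). The labels do not say what a replicate number stands for, so what sets replicate 1 apart was not tested.

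**Figure D3:**
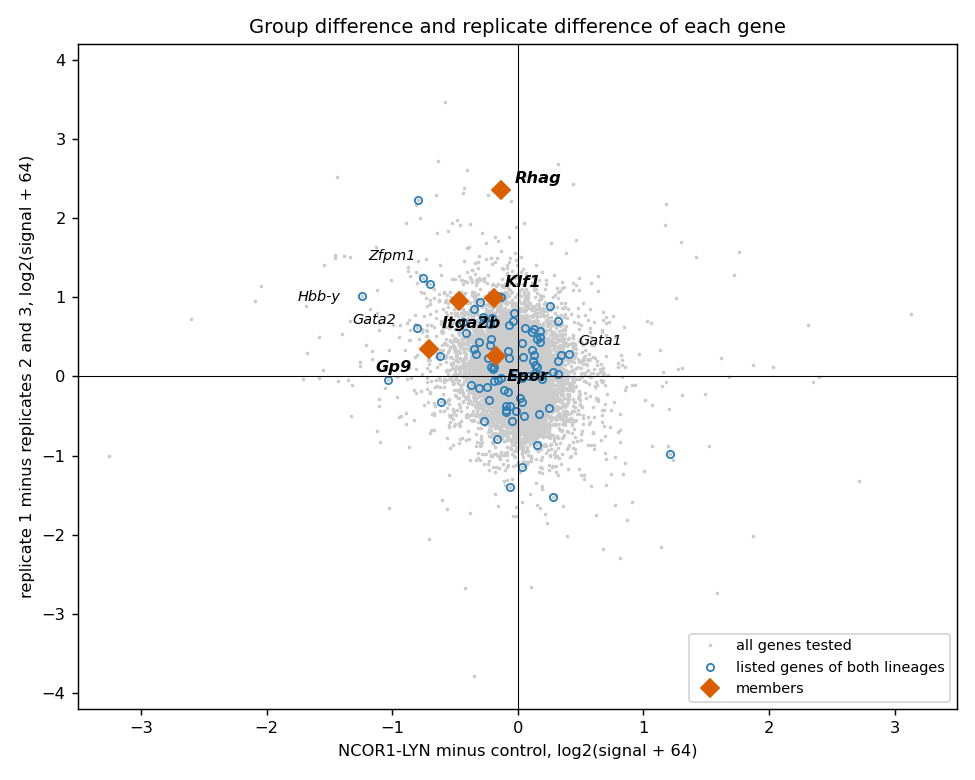
Each point is a gene, with the difference of NCOR1-LYN from control on the x axis and the difference of replicate 1 from replicates 2 and 3 on the y axis, both in log2(signal + 64), and with the 5 tested members as diamonds and the other listed genes of both lineages as rings. Rhag stands high at 2.35 on the y axis and near 0 on the x axis, while Gp9 stands furthest left among the members at −0.71.

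The replicate 1 pair changed differently from the other pairs for 2 members, in a test added after their values had been seen. The log2 difference of Klf1 was lower in the replicate 1 pair than in the other pairs (−0.77 ± 0.18, SE, adjusted p = 0.0242 in limma), and that of Itga2b was nearer 0 (0.48 ± 0.10, SE, adjusted p = 0.0185). Of the 10916 genes 12% passed this test, which takes its spread from replicates 2 and 3 alone.

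Transcription factors of both lineages were mostly well measured, with 19 of 22 listed genes tested. None of the 19 passed for NCOR1-LYN against control, with or without the block, and their median log2 difference was −0.035. An unadjusted p under 0.05 was found for 2 without the block and 7 with it, where 4.75% and 11.3% of all genes had one. Gata2, which maintains progenitors and mast cells, had signals of 14084, 7775 and 7669 in control and 6373, 4339 and 5671 with NCOR1-LYN. Its groups did not overlap, as for 6.06% of all genes with NCOR1-LYN lower. Its log2 difference was −0.80 ± 0.26 (SE, adjusted p = 0.773 in limma, 0.0667 with the block), and a second probe set gave −0.51. Gata1, which takes over from Gata2 as both lineages mature, went the other way in every pair, with 3373, 2579 and 2419 in control and 3925, 3337 and 3802 with NCOR1-LYN (0.41 ± 0.16, adjusted p = 0.956 in limma). The Gata1 groups overlapped. Tal1, which forms a complex with the GATA factors, had a difference of −0.41 ± 0.22. Without both replicate 1 arrays 8 of the 19 passed, 3 higher and 5 lower, where 6.82% of all genes passed and 3.64% passed as lower. Among them were Gata1 (0.50, adjusted p = 0.0039), Gata2 (−0.63, 0.0061) and Tal1 (−0.35, 0.0102) but not Klf1 (0.793). By replicate number 10 of the 19 passed, 9 of them higher in replicate 1, as was Klf1: Tal1, Zfpm1, Gfi1b, Nfe2, Ldb1, Klf3, Mafg and Mafk were the others. Fli1, an ETS factor of megakaryocytes, was lower in replicate 1. Genes that passed by replicate number made up 13.1% of all genes tested.

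Around Rhag, 13 of 22 listed membrane and Rh complex genes were tested, Rhag among them. Of these 0 passed for NCOR1-LYN against control, with or without the block (without it 1 had an unadjusted p under 0.05, where 4.75% of all genes did, and the median was −0.078). The largest difference was that of Gypc, a glycophorin that anchors the membrane skeleton, at 0.32 ± 0.13 (SE, adjusted p = 0.979 in limma). Gypc was the 1 of the 13 that passed without both replicate 1 arrays, as higher, where 6.82% of all genes passed. By replicate number 3 passed, and Rhd, the close relative of Rhag in the same complex, went opposite to it: Rhd read 122.7, 466 and 357 in control and 106, 410 and 389 with NCOR1-LYN, low in replicate 1 of both groups. Slc4a1, which encodes the band 3 anion exchanger, and Kel, Ermap, Aqp1 and Cldn13 lay below the filter.

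Haem and globin genes were tested for 15 of 26 listed, and 0 passed without the block (3 had an unadjusted p under 0.05, where 4.75% of all genes did, and the median was −0.078). With the block, where 0.824% of all genes passed, 1 fell, Hbb-y, the embryonic beta-like globin. It had signals of 1613, 863 and 699 in control and 663, 299 and 278 with NCOR1-LYN. All control arrays were above all NCOR1-LYN arrays, as for 6.06% of all genes, and replicate 1 was high in each group. The log2 difference was −1.24 ± 0.11 (SE with the block, adjusted p = 0.0079 in limma; 0.715 without the block). The 2 other Hbb-y probe sets gave −1.34 and −1.23, and since beta-like globin genes are near-identical in part, signal from other members of the cluster cannot be told apart. Adult red cell products were not all below the filter. Alas2, the erythroid enzyme that starts haem synthesis, read 2.6 to 5.94 over the 6 arrays and Hba-a1, an adult alpha globin, 2.38 to 38.1, both below the filter. The other adult alpha globin gene, Hba-a2, read 104 to 412, and the adult beta globin gene Hbb-b2 read 45.4 to 101, both above it (adjusted p = 0.999 for each in limma). Hbb-b2 was dim all the same, with a mean signal of 69.4. Hba-a2 was lowest in replicate 1 of both groups, at 104 in control and 171 with NCOR1-LYN. It passed by replicate number (adjusted p = 0.0232 in the limma F-test). By replicate number 4 of the 15 passed, 2 higher and 2 lower in replicate 1, where 13.1% of all genes passed. The listed adult beta globin genes Hbb-b1, Hbb-bs and Hbb-bt had no probe set with a single symbol. The alpha globin genes are near-identical copies, so their separate levels are uncertain. In the fit without both replicate 1 arrays 2 of the 15 passed (Hbb-y and Blvrb), both lower, where 6.82% of all genes passed and 3.64% passed as lower.

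Around Epor, 15 of 20 listed genes of erythropoietin receptor and related cytokine signalling were tested, Epor and Gata1 among them. Gata1 is also in the list of factors above, so the counts of this list partly repeat its values. Of the 15, 0 passed without the block (2 had an unadjusted p under 0.05, where 4.75% of all genes did, and the median was 0.037). With the block, where 0.824% of all genes passed, 1 rose, Cish, a STAT5 target that dampens these receptors. Its log2 difference was 1.21 ± 0.15 (SE with the block, adjusted p = 0.0221 in limma). Its signals were 786, 1910 and 2104 in control and 2536, 4276 and 3931 with NCOR1-LYN. Every NCOR1-LYN array was above every control array for Cish, whereas the groups overlapped for Epor (adjusted p = 0.767 with the block). Of the 15, 6 passed without both replicate 1 arrays, 5 higher and 1 lower, where 6.82% of all genes passed.

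Around Gp9 and Itga2b, 11 of 16 listed genes of the glycoprotein Ib-IX-V complex and the platelet integrin were tested. Both members are among the 11, so the counts of this list partly repeat their values. None passed with or without the block (2 had an unadjusted p under 0.05 without it and 5 with it, where 4.75% and 11.3% of all genes did). Of the 11, 8 were below 0, as were 52.8% of all genes, and the median was −0.27 against −0.013 over all genes. That median is the value of Gp6, a dim gene with a mean signal of 66.9. Gp5, another subunit of the complex, read 1001, 171 and 277 in control and 265, 205 and 162 with NCOR1-LYN, with control 1 far above the rest (−0.70 ± 0.51, adjusted p = 0.999 in limma). Gp1bb, the subunit that links glycoprotein IX to the complex, read 9.38 to 69.9 and lay below the filter. Itgb3, the beta3 chain that pairs with alphaIIb, also lay below the filter by its mean log2 value, yet read 292 in control 1 and 113 in NCOR1-LYN 1 against 2.66 to 4.45 on the other 4 arrays. Its replicate test passed in the fit of all probe sets (adjusted p = 0.0388 in limma), and its second probe set had a mean of 10.8. Without both replicate 1 arrays 4 of the 11 passed, where 6.82% of all genes passed and 3.64% passed as lower: Itga2b, Gp9, Itga6 and Fcer1g, each lower. The other lists of platelet genes were mixed in that fit: 5 of 9 other megakaryocyte genes passed, 2 higher and 3 lower, and 2 of 12 granule and secreted genes, 1 higher and 1 lower.

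In the fits of all 6 arrays other platelet genes gave 0 calls, with or without the block. Of 18 listed granule and secreted genes 12 were tested (0 with an unadjusted p under 0.05, median −0.035), and Pf4, Ppbp, Vwf, Mmrn1 and Cxcl5 lay below the filter. The largest difference was that of the clotting factor gene F5, 0.28 ± 0.26 (SE), which was −0.16 without both replicate 1 arrays. Of 19 other megakaryocyte genes 9 were tested (1 with an unadjusted p under 0.05, where 4.75% of all genes had one, median −0.19). Ctla2a, a protease inhibitor gene, had the largest difference, −1.03 ± 0.20 (adjusted p = 0.26 in limma, 0.0859 with the block). Its groups did not overlap, as for 6.06% of all genes with NCOR1-LYN lower.

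**Figure D4:**
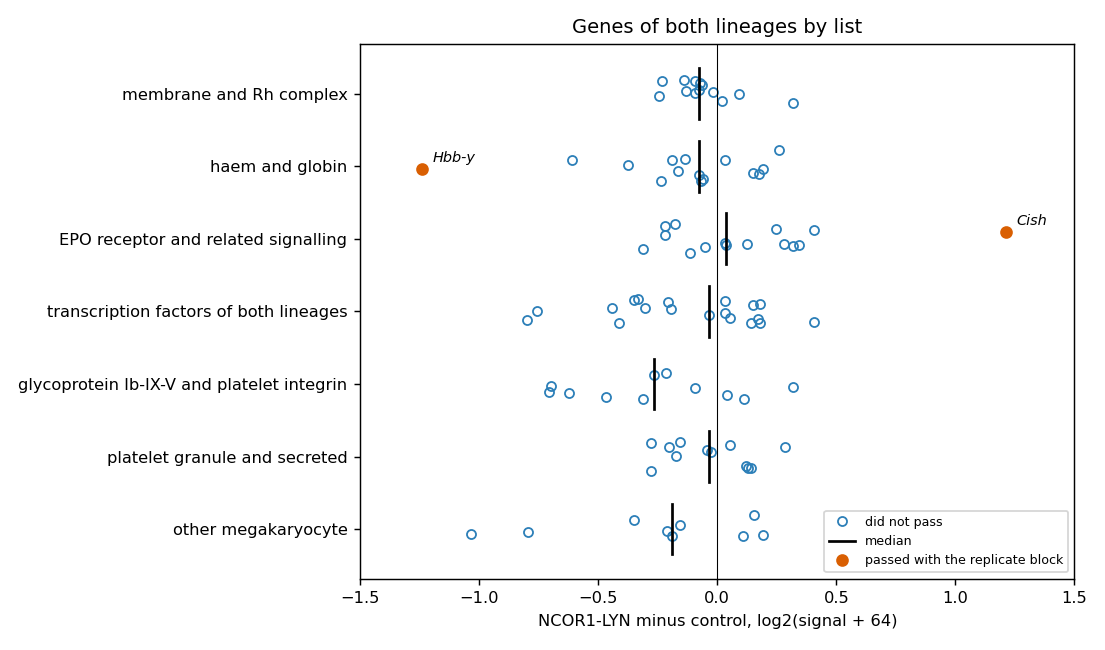
Difference of NCOR1-LYN from control in log2(signal + 64) for each tested gene of 7 lists of both lineages (EPO, erythropoietin), with the list median as a black line and filled points for genes past an adjusted p of 0.05 in limma with the replicate block. Only Hbb-y at −1.24 and Cish at 1.21 are filled in these lists, and the median of the glycoprotein Ib-IX-V list is −0.27.

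Defining markers lay above the filter for a part of each lineage, which is a cut on signal and not a call of presence. Of 11 erythroid markers 4 were above the filter (Klf1, Epor, Rhag and Gata1), and of 12 megakaryocyte markers 4 were (Gp9, Itga2b, Gp5 and the dim Gp6, with a mean signal of 66.9). Slc4a1, Alas2, Hba-a1, Pf4, Ppbp, Treml1 and Clec1b were among those below it. Other products of mature cells were above it, such as Hba-a2 and Hbb-y and, among platelet granule genes, F13a1 (mean signal 18314) and Srgn (mean signal 21875), which other blood cells also express. Summed over their markers, erythroid signal ranged from 5151 to 11204 in control and from 5909 to 9561 with NCOR1-LYN, and megakaryocyte signal from 4378 to 8225 and from 2991 to 6052, so both ranges overlapped between groups. By pair, the megakaryocyte sum was lower with NCOR1-LYN in all 3 (8225 and 6052, 4378 and 3103, 4684 and 2991), whereas the erythroid sum was lower in the replicate 1 pair alone (11204 and 9561, 5454 and 5909, 5151 and 6968). These sums were not tested, and most of each comes from its brightest genes. For megakaryocytes that is Itga2b, so the sum largely repeats a member described above. For the erythroid sum it is Klf1 and Gata1, and Gata1 acts in both lineages. Of 7 markers of the labelled B lymphoid lineage 3 were above the filter (Cd79b, Igll1 and Pax5), while Cd79a, Vpreb1 and Ebf1 were below it. Igll1 and Pax5 were dim, with mean signals of 73.6 and 69.7. The summed signal of this lineage ran from 589 to 865 in control and 637 to 688 with NCOR1-LYN.

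Summed marker signals of 2 other kinds of blood cell did not overlap between the groups and were higher with NCOR1-LYN, through a few genes of each. Those of neutrophils and monocytes (5 of 7 above the filter, Elane and Ctsg below) summed to 2241 to 2513 in control and 6835 to 10289 with NCOR1-LYN. Ngp rose in every pair (log2 differences of 4.27, 1.89 and 1.98), whereas Prtn3 did not rise in the replicate 1 pair (−0.014, 2.14 and 2.34). Of the list of 14 such genes 7 were tested and 1 rose, Ltf, a neutrophil granule gene (2.35 ± 0.19, SE, adjusted p = 0.0175 in limma), where 0.0824% of all genes passed. Ltf was dim in control, at 36.9, 60.4 and 85.1, against 657, 502 and 541 with NCOR1-LYN. Those of mast cells and basophils (2 of 5 above the filter, Kit, Cpa3 and Mcpt8 below) summed to 572 to 1240 and 1798 to 4568. Most of that sum was the IgE receptor gene Fcer1a (2.40 ± 0.47, SE, adjusted p = 0.26 in limma), while Ms4a2, the other mast cell marker above the filter, had a difference of −0.17. Fcer1a differed by 0.68 in the replicate 1 pair and by 3.30 and 3.22 in the other pairs. Of the mast cell and basophil list 4 genes were tested, 3 of them below 0 (median −0.48). Of the 4, 0 passed without the block (3 had an unadjusted p under 0.05, where 4.75% of all genes did). With the block 1 fell, the chymase gene Cma1 (−1.73 ± 0.23, SE with the block, adjusted p = 0.0281). Gata2, described above, is among the 4, so the counts and median of this list partly repeat its value. The part of these cell types in the Gp9 and Itga2b values was not tested. T and NK cell markers (1 of 6 above the filter) summed to 149 to 206 in control and 128 to 144 with NCOR1-LYN. That dim sum was lower with NCOR1-LYN and did not overlap between the groups either. Fibroblast markers (1 of 4) summed to 88.3 to 188 and 59.2 to 101, which overlapped. The B lymphoid, T and NK cell and fibroblast lists had 4, 2 and 2 genes tested and 0 calls with or without the block (0, 0 and 1 with an unadjusted p under 0.05), with Pax5 (−0.16), Zap70 (−0.41) and Col1a2 (−0.49) the largest differences.

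The genes whose levels followed each member most closely over the 6 arrays are given as a description over 6 arrays, which share groups and replicate numbers, with no test. Gp9 was closest to Serinc1 (Pearson r = 0.999) and Cmas (r = 0.992), and 51 genes had an r above 0.95 with it. Serinc1 and Cmas had every control array above every NCOR1-LYN array, which follows largely from their choice by r with Gp9. Rhag was closest to Polk (r = 0.998) and Rbck1 (r = 0.998), and 467 genes had an r above 0.95 with it. Itga2b was closest to Qtrt1 (r = 0.993) and Ifi30 (r = 0.993), and Klf1 to Rinl (r = 0.999) and B4galnt4 (r = 0.997). Epor was closest to Dcdc2b (r = 0.988) and Pkn2 (r = 0.975), with 11 genes above 0.95. No gene among these 10 passed for NCOR1-LYN against control, with or without the block.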

How the data were processed

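The authors deposited 1 linear intensity per probe set; the submitters' processing notes name MAS5 without its version. Each array had a mean of 500.0 after trimming 2% at each end. MAS5 corrects for background and mismatch probes, which makes dim signals noisy. Groups and replicate numbers came from the labels. Probe sets with several symbols (932) or none (9160) and 64 control probe sets were left out. Each gene was represented by its brightest probe set, and genes under the 40th percentile of mean log2(signal + 64) were not tested. limma 3.58.1 (R 4.3.3) was used with lmFit, eBayes with a trend and Benjamini-Hochberg adjustment over 10916 genes, two-sided, threshold 0.05, checked on simulated data. Residual degrees of freedom were 4, or 2 with the replicate block. Members, lists, and the naming rule (all members, called or largest listed genes, defining markers, the 2 closest genes per member) were chosen with earlier results of these data known. Rhd, Itga6, Fcer1g, Fcer1a, Ms4a2, Ngp, Prtn3, Hba-a2, Hbb-b2, Blvrb, F13a1, Srgn and the factors named by replicate number fall outside that rule and were named after their values were seen. Some listed genes are not reported here.

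The pairing of arrays by number was checked by correlating deviations from group means across genes, which are not independent: 0.617, 0.409 and 0.439 for replicates 1, 2 and 3, all above 0.1, so numbers were taken to pair arrays. Control 2 and 3 correlated as well with NCOR1-LYN 3 and 2 (0.393 and 0.485), so the check bears on replicate 1. Median signals ran from 54.8 to 61.9 per array, and precision is limited by having 3 arrays a group. The submitters call the cultures triplicate and say no more on independence; the spread behind each p-value may therefore be technical. Alternatives covered the offset, filter, normalization, probe set choice, trend, array weights, the block and left-out arrays.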

Additional observations from a re-analysis of the deposited data

Results flagged for a closer look

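For 2 members the difference between NCOR1-LYN and control in the replicate 1 pair differed from that in the other pairs by a test of the difference itself, added after the values were seen. For Itga2b the log2 difference between these was 0.48 ± 0.10 (SE, adjusted p = 0.0185 in limma), with pairs of −0.14, −0.61 and −0.64. For Klf1 it was −0.77 ± 0.18 (adjusted p = 0.0242), with pairs of −0.71, −0.18 and 0.31. Of all genes 12% passed the same test, whose residual degrees of freedom were 2.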

How the results depend on the processing

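With 3 arrays per group and replicate 1 apart, intervals of the members are wide and a missed threshold does not show equal levels. Member calls between groups stayed at 0 in all other settings and were 2 (Gp9 and Itga2b) with array weights (adjusted p = 0.0354 and 0.0498) and without both replicate 1 arrays, where the count in the fit of all probe sets was 1. Genes called went from 9 to 1 without the filter or at the 60th percentile, 502 with array weights, 90 with the replicate block, 744 without both replicate 1 arrays and 0 to 15 without a single array. Of the 9 calls 66.7% were higher with NCOR1-LYN, against 50% of 8 with array medians set equal, 32.2% of 90 with the replicate block, 45.0% of 502 with array weights and 46.6% of 744 without both replicate 1 arrays. Listed genes called went from 1 to 0 without the filter or at the 60th percentile, 23 with array weights, 34 without both replicate 1 arrays, 4 with the replicate block and 0 to 2 without a single array. The 1 was Ltf, whose call was also lost when control 2, control 3, NCOR1-LYN 2 or NCOR1-LYN 3 was left out. Its log2 difference ran from 1.38 to 2.96 over the alternatives. Probe sets called went from 1 to 2 (offset 16), 0 (the higher offset, or medians set equal), 5 (no trend), 35 (array weights), 15 (replicate block), 348 (without both replicate 1 arrays) and 0 to 2 without a single array. Genes called by replicate number went from 1425 to 600 without the filter and 850 without the trend. Without both replicate 1 arrays the sign turned for Klf1 (0.065), Epor (0.074), F5 (−0.16), Rinl (0.0059), B4galnt4 (0.058), Dcdc2b (0.061) and Pkn2 (0.026), and with array weights for Klf1 (0.050), Epor (0.13), F5 (−0.12), B4galnt4 (0.052), Dcdc2b (0.094; 0.16 with the mean of probe sets) and Pkn2 (0.039). Leaving out 1 array moved Rhag from −0.99 to 0.58, Klf1 from −0.47 to 0.27, Epor from −0.37 to 0.035, Pax5 from −0.50 to 0.21, Zap70 from −1.26 to 0.050, Polk from −0.48 to 0.30, Rbck1 from −0.18 to 0.12, Rinl from −0.32 to 0.13, B4galnt4 from −0.20 to 0.13, Dcdc2b from −0.20 to 0.019 and Pkn2 from −0.047 to 0.026. The cause of these changes was not tested. Gp9 (−0.83 to −0.48) and Itga2b (−0.86 to −0.23) kept their direction in all 17 alternatives. The block changed the calls of Hbb-y, Cish and Cma1 and of no other named gene.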
